A study of Homo sapiens with 8 samples.

Results

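The genes described are 44 protein-coding genes of DNA repair and DNA replication, out of 19970 protein-coding genes on chromosomes 1 to 22 and X of the RefSeq annotation (GRCh38.p14). The 44 were given as a named list, and a peak was counted for a gene when it lay whole within the gene's span, introns included. The peaks come from RNA immunoprecipitation sequencing (RIP-seq) with an antibody against METTL3 in LNCaP, an androgen-sensitive human prostate cancer line, and in PC3, an androgen-independent one. The labels list 8 samples, a METTL3 IP group and an input group in each line with 2 replicates per group, and name no treatment or genetic change. Each group is a single established line, so a difference between the groups is one between 2 lines and not between classes of tumour. The labels do not say whether replicates were separate cultures.

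DNA repair removes breaks, adducts and mispaired bases, and DNA replication copies the genome while checkpoint kinases watch over stalled forks. Many of the genes encode long scaffold proteins or large enzymes, and many are most active in dividing cells. METTL3 is the methyltransferase that, with its partner METTL14, places N6-methyladenosine on messenger and other RNAs. RIP-seq recovers RNA that is held by the antibody together with its protein, whether or not that RNA is methylated.

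The deposited result is 1 peak list per line, with 2616 peaks in LNCaP and 1033 in PC3. The lists hold no value per library, so no value below has an error between replicates, depth is unknown, and no test between the lines was possible. Every fold, p and FDR given here is the authors' value for a peak, from a test that the sources used here do not name, made separately for each list. Folds are therefore read within a list, by rank where helpful (rank 1 is the largest fold or the smallest p). The lists also end at different p-values: the largest p in PC3 was 1.59e-05, and 389 of the 2616 LNCaP peaks were at or under it. The prostate genes FOLH1 and TMPRSS2 each carried 1 LNCaP peak and no PC3 peak, but a peak list holds no expression level and does not identify a line. METTL3 itself had no peak in either list.

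In LNCaP, 13 of the 44 genes (29.5%, 95% Wilson interval 18.2 to 44.2%) held at least 1 peak, beside 5.62% of all protein-coding genes. In PC3, 5 of the 44 (11.4%, Wilson interval 4.95 to 24.0%) did, beside 1.83% of all protein-coding genes. The repair and replication genes were long, with a median span of 62642.5 bp against 24107 bp for the other protein-coding genes, and long genes held peaks more often. Other protein-coding genes of like length, taken from 10 equal classes of gene span in the proportions of the 44, held a peak in 8.05% of cases in LNCaP and 2.96% in PC3. The share among the 44 was thus 3.67 times that of genes of like length in LNCaP and 3.85 times in PC3. These ratios were not tested, because the genes were chosen with earlier results of these lists known. The lists hold no expression level, so which genes the lines express was not taken into account. The intervals cover counting error only.

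**Figure D1:**
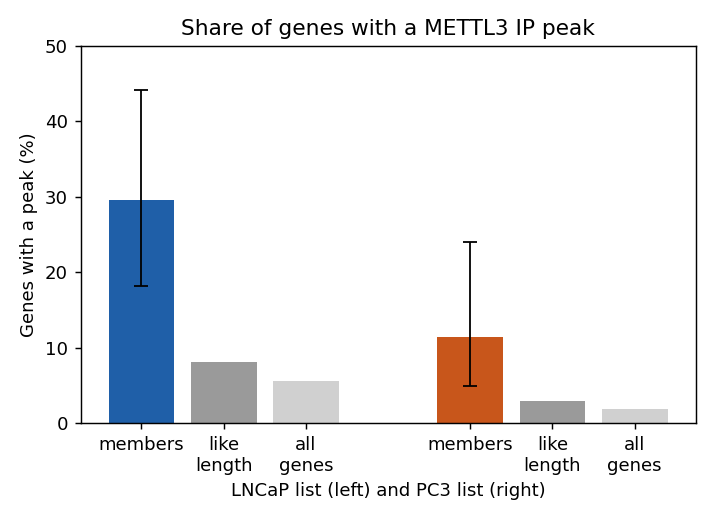
Share of genes (%) whose span held a whole METTL3 IP peak, for the 44 repair and replication genes, for other protein-coding genes of like length and for all protein-coding genes, in the LNCaP list (left) and the PC3 list (right). Error bars on the coloured bars (members, the 44 genes) are 95% Wilson intervals, and these bars stand at 29.5% and 11.4%, above the 8.05% and 2.96% of genes of like length.

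The 13 genes with a LNCaP peak had a median span of 48580 bp and the 5 with a PC3 peak 33064 bp, while the 31 genes with a peak in neither list had a median of 67003 bp. In the length class from 35359 to 52390 bp, 5 of 8 members held a LNCaP peak (CLSPN, RTEL1, PARP1, SMC1A and SMC3), beside 6.23% of the other genes of that class. In the class from 83656 to 152316 bp, RAD50 and POLQ did, 2 of 12 members (16.7%), beside 10.3% of the other genes. ATM, ATR, BRCA1, TP53BP1 and RIF1, all of that class, had no peak in either list. In the longest class, from 152319 bp, POLA1 and PRKDC of 4 members held LNCaP peaks, beside 14.4% of the other genes.

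All 5 genes of the PC3 list, PARP1, TOP2A, SMC1A, MDC1 and TIMELESS, were also among the 13 of the LNCaP list. They made up 100% of the PC3 genes and 38.5% of the LNCaP genes, beside 62.8% and 20.4% for the other protein-coding genes with a peak, and 1.16% of all protein-coding genes had a peak in both lists. The other 8 genes, PRKDC, LIG1, POLA1, CLSPN, POLQ, RAD50, RTEL1 and SMC3, had peaks in LNCaP alone. The order of the lines depended on the p-values admitted. When LNCaP peaks were held to the largest p of PC3, 4 of the 44 genes were left in LNCaP (CLSPN, MDC1, PRKDC and SMC1A), beside 1.33% of all protein-coding genes, against the same 5 in PC3. MDC1 and SMC1A were then the 2 genes in both lists. At that p, CLSPN and MDC1 were counted in LNCaP only through peaks on the strand opposite to their own. A gene missing in PC3 was therefore not shown to be free of METTL3 IP signal there.

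**Figure D2:**
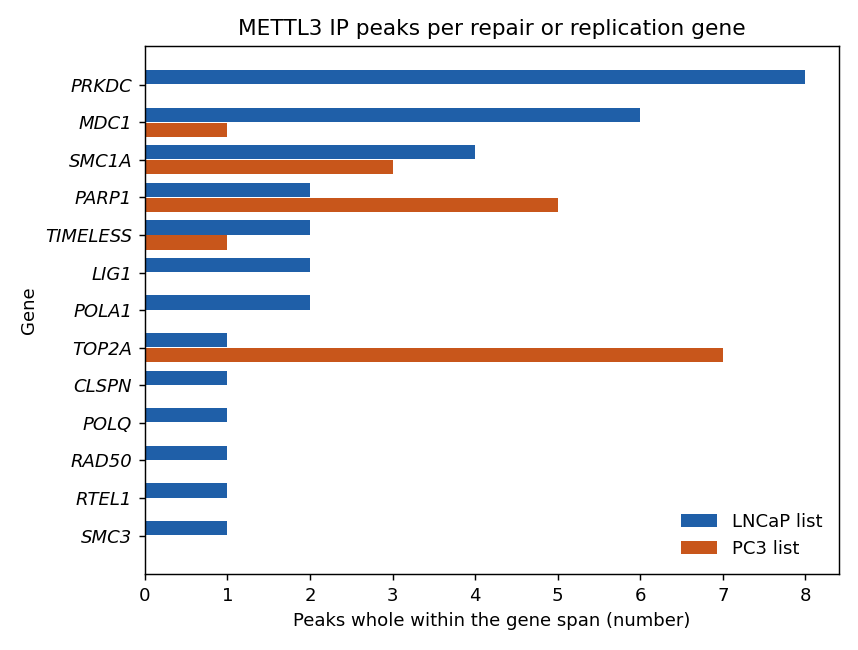
Number of METTL3 IP peaks whole within the gene span for the 13 repair and replication genes with a peak in either list, LNCaP in blue and PC3 in orange. PRKDC had the most peaks in LNCaP (8) and none in PC3, and TOP2A the most in PC3 (7) against 1 in LNCaP.

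Among the damage signalling and mediator genes, 3 of 9 had LNCaP peaks and 2 of 9 PC3 peaks, beside 5.62% and 1.83% of all protein-coding genes. CLSPN in LNCaP and MDC1 in PC3 were counted through the opposite strand alone. MDC1 is the scaffold that binds phosphorylated histone H2AX beside DNA breaks. It lies on the minus strand of chromosome 6 (30699807 to 30717281, 17475 bp) and held 6 peaks in LNCaP and 1 in PC3. Of the 1994 other genes of its length class, 7 had as many LNCaP peaks or more. These counts take both strands and leave close peaks apart. With peaks within 25 bp on the same strand joined, the 6 LNCaP peaks of MDC1 made 4 stretches. The 4 LNCaP peaks on the strand of MDC1 had folds of 10.6 (30712813 to 30713013, p of 0.000177), 7.13 (30712563 to 30712688, p of 0.00104), 6.50 (30707825 to 30708275, p of 6.52e-05) and 3.78 (30707750 to 30707800, p of 0.00619). Their FDR ran from 0.000309 to 0.00747. No PC3 peak lay on the strand of MDC1.

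The remaining MDC1 peaks lay on the plus strand, where RefSeq places the long noncoding RNA MDC1-AS1. A peak from 30703116 to 30712771 had a fold of 7.52 in LNCaP (p of 2.24e-08, FDR 4.28e-07). In PC3 a peak with the same start, 30703116 to 30712409, had a fold of 3.02 (p of 7.48e-08, FDR 1.17e-07). A further LNCaP peak on this strand, 30712796 to 30713021, had a fold of 10.0 (p of 0.000179, FDR 0.000678). This further peak began 25 bp after the end of the long one. It covered the whole of the minus-strand peak with a fold of 10.6. The MDC1-AS1 gene span held all 7 peaks, but it shares the strand of only these plus-strand ones. The plus-strand peak made up 55.3% of the MDC1 span in LNCaP and 53.2% in PC3. MDC1 was thus in the PC3 list only through the strand opposite to its own, while in LNCaP it held peaks on both strands.

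CLSPN, which encodes the fork protein claspin that brings CHK1 to the kinase ATR, likewise held its only peak on the strand opposite to its own. CLSPN lies on the minus strand of chromosome 1 (35720213 to 35769978). The LNCaP peak was on the plus strand (35739463 to 35739513, 51 bp), with a fold of 5.73, a p of 1.33e-05 and an FDR of 9.28e-05, and RefSeq places the long noncoding RNA CLSPN-AS1 there on that strand.

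The CLSPN peak and the long plus-strand peak within MDC1 began less than 100 bp downstream of an annotated start, and the RefSeq windows are shown to place both beginnings beside those starts (GRCh38.p14, plus strand, 5′ to 3′, from 250 bases before the start to 50 bases from it on). The CLSPN peak began 18 bp after the start of CLSPN-AS1, and its first 32 bases are in capitals in the window chr1:35739195-35739494. The long plus-strand peak within MDC1 began 49 bp after the start of MDC1-AS1 in both lists. In the window chr6:30702817-30703116 the 50 bases from that start on are in capitals, and the last of them is the first base of the peak.
CLSPN-AS1: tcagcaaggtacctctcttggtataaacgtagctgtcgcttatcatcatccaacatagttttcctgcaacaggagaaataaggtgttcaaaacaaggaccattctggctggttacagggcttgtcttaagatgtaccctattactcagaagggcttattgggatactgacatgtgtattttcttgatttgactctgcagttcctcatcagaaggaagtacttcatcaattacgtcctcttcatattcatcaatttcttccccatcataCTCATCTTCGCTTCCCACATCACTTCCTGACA
MDC1-AS1: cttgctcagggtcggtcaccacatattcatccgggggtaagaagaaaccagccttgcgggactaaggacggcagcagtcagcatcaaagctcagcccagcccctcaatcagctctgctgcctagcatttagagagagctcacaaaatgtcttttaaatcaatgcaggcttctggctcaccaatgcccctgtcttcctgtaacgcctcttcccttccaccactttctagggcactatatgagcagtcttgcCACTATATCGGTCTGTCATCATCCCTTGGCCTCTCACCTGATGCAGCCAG
The motif GGACT, a common form of the site that METTL3 methylates, was searched on both strands of the 300 bases. It had no match in the CLSPN-AS1 window and 1 match in the MDC1-AS1 window, outside the capitals, and 44.2% of the 35116 RefSeq start windows hold it. A match or its absence in these letters says nothing on the rest of the peaks, of which the windows hold only the first bases. The other plus-strand MDC1 peak in LNCaP did not begin near an annotated start. Which transcript gave the opposite-strand reads was not tested.

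TIMELESS encodes a fork protection protein that couples the replicative helicase to the polymerases. It lies on chromosome 12 (56416363 to 56449426, minus strand), and all its peaks were on that strand and in the last part of the gene. In LNCaP the folds were 5.94 (56421057 to 56421398, p of 0.000349, FDR 0.0011) and 4.69 (56423470 to 56423817, p of 0.00349, FDR 0.00507). In PC3 the fold was 4.87 (56417672 to 56418292, p of 3.23e-09, FDR 6.87e-09). The PC3 peak lay farther along the gene and met neither of the LNCaP peaks. The kinases ATM and ATR, the ATR partner ATRIP, the ATR activator TOPBP1 and the end-protection factors TP53BP1 and RIF1 had no peak in either list.

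Among the genes of end joining and single-strand break repair, 3 of 5 had LNCaP peaks and 1 of 5 PC3 peaks, beside 5.62% and 1.83% of all protein-coding genes. PRKDC, the catalytic subunit of DNA-dependent protein kinase, which acts in nonhomologous end joining, lies on chromosome 8 (47773111 to 47960136, 187026 bp). It held 8 LNCaP peaks, the most of the repair and replication genes. Over all protein-coding genes, 44 had 8 or more LNCaP peaks, PRKDC among them, as did 8 of the 1993 other genes of its length class. All 8 were on the minus strand. The largest fold was 13.97 on a 176 bp peak (47890275 to 47890450, p of 0.00024, FDR 0.000838). The smallest p-values were on neighbouring peaks with folds of 6.63 (47834195 to 47837370, p of 1.93e-07, FDR 2.71e-06) and 6.61 (47828317 to 47831901, p of 1.37e-06, FDR 1.45e-05). The other 5 had folds from 3.26 to 4.63. In the middle part of the gene these were 4.63 (47889066 to 47889116, p of 0.00704, FDR 0.00816) and 3.69 (47862414 to 47862489, p of 0.0109, FDR 0.0115). In the last part they were 3.26 (47823977 to 47826686, p of 0.0132, FDR 0.0135), 3.95 (47807206 to 47817479, p of 0.00116, FDR 0.00249) and 4.13 (47803400 to 47807156, p of 0.00187, FDR 0.00334). PRKDC had no PC3 peak.

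PARP1, the enzyme that senses single-strand breaks and adds poly(ADP-ribose), was in both lists (chromosome 1, 226360691 to 226408093, minus strand). It held 2 LNCaP and 5 PC3 peaks, all on its own strand. The LNCaP folds were 6.09 (226380075 to 226381178, p of 0.000377, FDR 0.00115) and 5.44 (226379272 to 226379620, p of 0.000898, FDR 0.00211). Both LNCaP peaks met a PC3 peak, with folds of 3.60 (226380050 to 226381178, p of 8.45e-10, FDR 1.92e-09) and 3.71 (226379222 to 226380025, p of 6.87e-11, FDR 1.91e-10). The first of these pairs shared its boundary at 226381178 and lay 25 bp apart at the other end. Another PC3 peak, of 51 bp, (226379147 to 226379197, fold 3.54, p of 1.77e-07, FDR 2.55e-07) followed these, and the 3 were separated by steps of 25 bp. The other PC3 peaks had no LNCaP counterpart. They had a fold of 3.20 over 4306 bp (226388658 to 226392963, p of 3.73e-15, FDR 1.77e-14) and a fold of 3.25 beginning 173 bp after the gene's start (226407845 to 226407920, p of 3.90e-08, FDR 6.47e-08).

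LIG1, the ligase that joins Okazaki fragments, had 2 LNCaP peaks in the first part of the gene (chromosome 19, minus strand). The fold of 14.8 (48150192 to 48157091, p of 2.17e-05, FDR 0.000136) was the second largest of the 44 genes, and its p was just above the largest PC3 p. The other had a fold of 7.27 (48161372 to 48162301, p of 0.00127, FDR 0.00262). XRCC1, the scaffold of single-strand break repair, and its partner LIG3 had no peak.

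Of the 2 cohesin ATPases in the list, 2 had LNCaP peaks and 1 had PC3 peaks, beside 5.62% and 1.83% of all protein-coding genes. SMC1A (chromosome X, 53374149 to 53422728, minus strand) held 4 peaks in LNCaP and 3 in PC3, all on its own strand and all in its first or middle part. The PC3 peak from 53409225 to 53413415 had a fold of 4.40 and the smallest p of any peak on the 44 genes (p of 2.85e-25, FDR 3.42e-24, rank 86 of 1033). It met 3 LNCaP peaks, with folds of 3.92 (53409150 to 53412972, p of 0.00067, FDR 0.00171), 4.52 (53413122 to 53413240, p of 2.07e-09, FDR 5.46e-08) and 3.65 (53413290 to 53413340, p of 0.000141, FDR 0.000566). The p of 2.07e-09, on a 119 bp peak, was the smallest of the 44 genes in LNCaP (rank 99 of 2616). The PC3 peak with a fold of 3.55 (53396357 to 53405026, p of 5.54e-14, FDR 2.32e-13) met the fourth LNCaP peak, with a fold of 3.87 (53403883 to 53405051, p of 0.00655, FDR 0.00773). A 127 bp PC3 peak between them (53405371 to 53405497, fold 3.82, p of 3.10e-06, FDR 3.33e-06) met none. SMC3, the partner of SMC1A in the cohesin ring, had 1 LNCaP peak with a fold of 4.25 near the end of the gene (chromosome 10, 110600485 to 110601035, p of 0.00392).

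TOP2A, the topoisomerase that untangles replicated chromosomes in dividing cells, had 7 peaks in PC3 and 1 in LNCaP (chromosome 17, 40388525 to 40417896, minus strand), all on its own strand. In PC3, 27 protein-coding genes, TOP2A among them, had 7 or more peaks, and 4 of the 1989 other genes of its length class did. The 7 PC3 folds ran from 3.64 to 6.05. The largest, 6.05 (40407967 to 40408509, p of 2.08e-13, FDR 7.84e-13), was the largest of the 44 genes in PC3 and ranked 460 of 1033. Folds of 5.51 (40406869 to 40407650, p of 1.79e-13, FDR 6.82e-13), 5.30 (40411808 to 40412948, p of 1.25e-10, FDR 3.35e-10) and 4.93 (40399893 to 40399943, p of 2.24e-08, FDR 3.93e-08) followed. The smallest p, 1.69e-16 (FDR 9.33e-16), was on a 6290 bp peak with a fold of 3.71 (40392281 to 40398570). The single LNCaP peak, with a fold of 6.69 (40395535 to 40396328, p of 0.000256, FDR 0.00088), lay inside this long PC3 peak. The other 2 TOP2A peaks in PC3 had folds of 4.82 (40413196 to 40413583, p of 5.34e-09, FDR 1.09e-08) and 3.64 (40398620 to 40399078, p of 1.86e-10, FDR 4.81e-10). TOP2B, the isoform also present in resting cells, had no peak in either list.

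**Figure D3:**
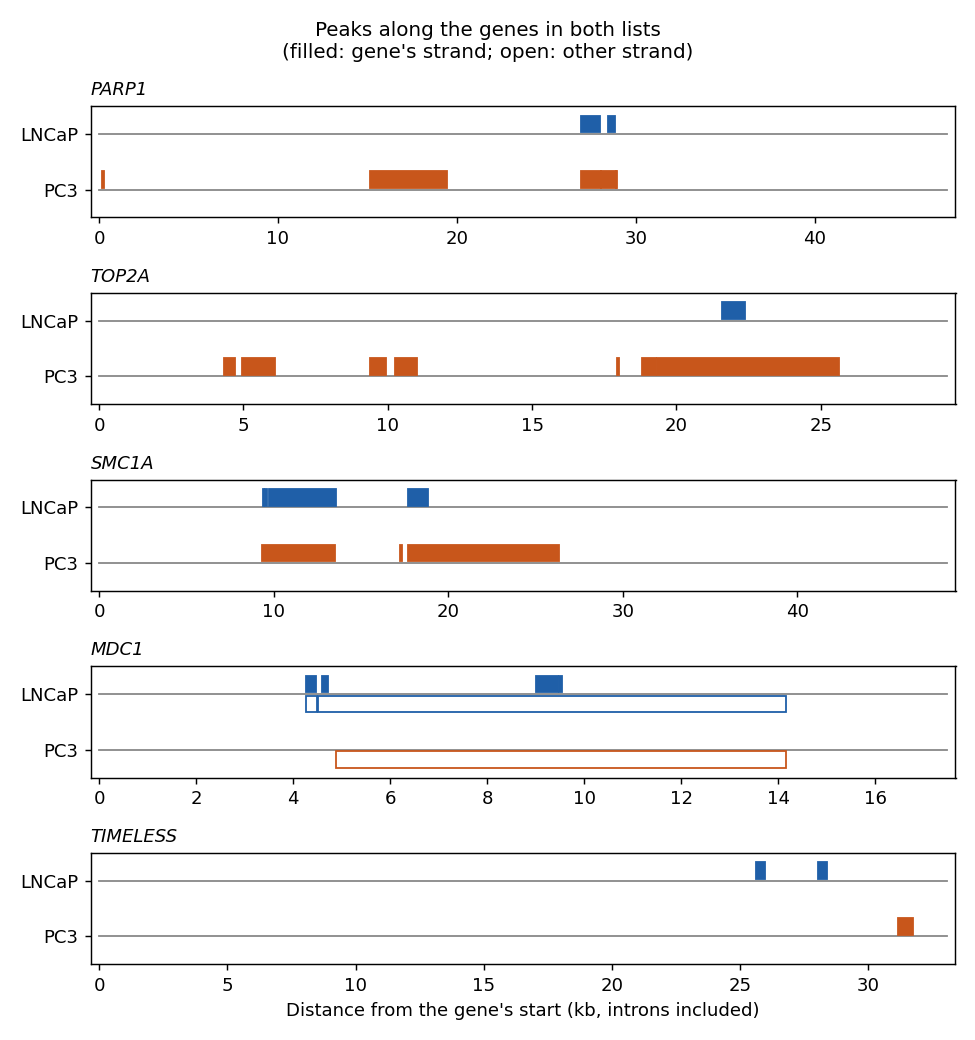
Peaks along PARP1, TOP2A, SMC1A, MDC1 and TIMELESS, the 5 genes with peaks in both lists, by distance from the gene's start (kb, introns included). Filled boxes lie on the strand of the gene and open boxes on the other strand; 2 of the 5 PC3 peaks on PARP1, 2 of 3 on SMC1A, 1 of 7 on TOP2A, 1 of 1 on MDC1 (open) and 0 of 1 on TIMELESS overlap a LNCaP peak.

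Among the polymerases, POLA1 and POLQ had LNCaP peaks (2 of 4), beside 5.62% of all protein-coding genes. POLA1, the catalytic subunit of the polymerase that extends primers at origins and on the lagging strand, had 2 peaks over the beginning of its 303069 bp span (chromosome X, plus strand). The first began 50 bp after the gene's start (24693968 to 24703289, fold 7.10, p of 0.000489, FDR 0.00138). The second began 50 bp after its end (24703339 to 24714639, fold 9.08, p of 0.000186, FDR 0.000697). POLQ, the polymerase of microhomology-mediated end joining, had a peak of 76 bp in its last part, at a fold of 3.78 (chromosome 3, 121449328 to 121449403, p of 0.0103). POLE and POLD1, the replicative polymerases of the leading and lagging strand, had none.

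Among the helicases, RTEL1 alone had a peak (1 of 4 in LNCaP), beside 5.62% of all protein-coding genes. RTEL1 unwinds telomeric loops and recombination intermediates. Its 135 bp LNCaP peak (chromosome 20, 63678173 to 63678307, plus strand) had a fold of 105, rank 6 of 2616 by fold, but a p of 0.000102 (FDR 0.000442), rank 604 by p. The span of RTEL1-TNFRSF6B, a readthrough transcript on the same strand, also held this peak, and the list does not tell the 2 transcripts apart. WRN, BLM and RECQL4 of the RecQ helicases had no peak. Of the 3 genes of the MRN complex, which binds broken ends, 1 had a LNCaP peak, beside 5.62% of all protein-coding genes. RAD50 had 1 LNCaP peak with a fold of 4.58 (chromosome 5, 132608640 to 132609131, plus strand, p of 0.00261). MRE11 and NBN had none.

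In 4 of the 11 groups of genes no member had a peak in either list. These were homologous recombination (BRCA1, BRCA2 and PALB2), the Fanconi anaemia pathway (FANCA, FANCD2, FANCI, FANCM, BRIP1 and SLX4), mismatch repair (MSH3, MSH6 and MLH3) and nucleotide excision repair (ERCC2, ERCC5 and ERCC6). Together they hold 15 of the 31 genes without a peak. At the share of LNCaP genes of like length with a peak, 3.54 of the 44 genes would hold one, so a group of 3 to 6 genes without a peak says little about that group.

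On these genes 8 LNCaP peaks of 32 (25%) overlapped a PC3 peak on the same strand by 1 bp or more, and 6 PC3 peaks of 17 (35.3%) overlapped a LNCaP peak. Over the other protein-coding genes these shares were 21.4% and 44.4%. With an overlap of 50% of both peaks required, 3 pairs were left, on MDC1, PARP1 and SMC1A. The MDC1 pair was that on the antisense strand, where 96.3% of the LNCaP peak and 100% of the PC3 peak were shared. The PARP1 pair shared 1104 bp and the SMC1A pair 3748 bp.

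The median fold on the repair and replication genes was 5.84 in LNCaP (32 peaks, 95% interval of the median from order statistics 4.25 to 7.10), beside 5.26 over peaks on other protein-coding genes. In LNCaP, 18 of the 32 peaks had a fold above the median of the list. In PC3 the median was 3.71 (17 peaks, interval 3.55 to 4.87), beside 5.83 on other protein-coding genes. Only 1 of the 17 PC3 peaks, that on TOP2A with a fold of 6.05, was above the median of its list, 5.74. By p the PC3 peaks were not at the weak end, with a median p of 1.86e-10 beside 6.37e-09 for the list. In LNCaP the median p was 0.000433 beside 0.00137. Peaks of 1 gene share its transcript and are not independent, and TOP2A and PARP1 gave 12 of the 17 PC3 peaks, so these medians were not tested.

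**Figure D4:**
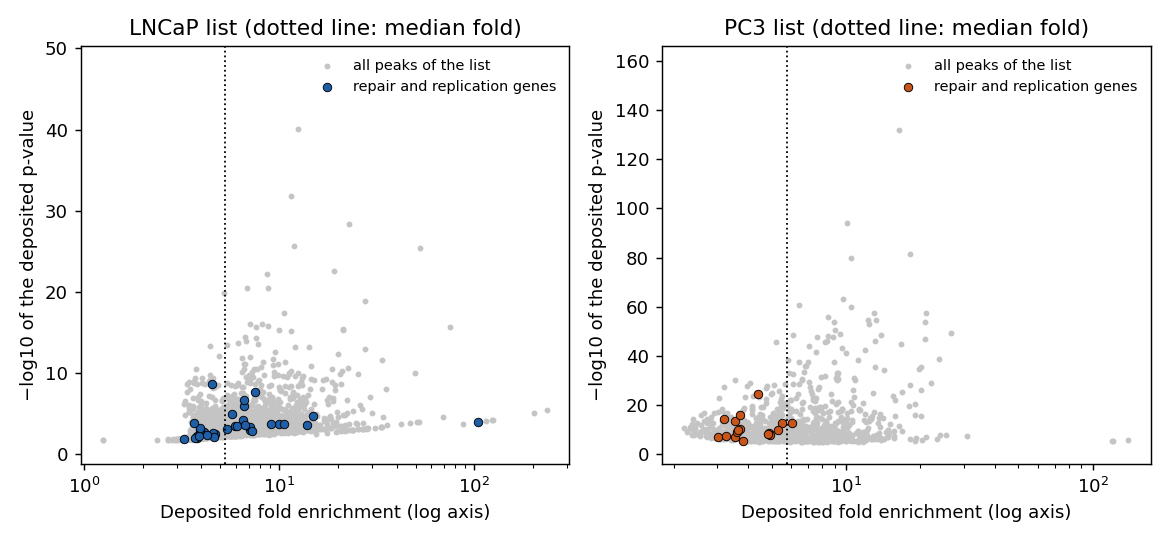
Deposited fold enrichment (log axis) against the negative log10 of the deposited p-value for every peak of the LNCaP list (left) and the PC3 list (right), with peaks on repair and replication genes in colour and the list's median fold as a dotted line. The coloured LNCaP points lie on both sides of 5.26 with RTEL1 alone at 105, and 16 of the 17 PC3 points lie left of 5.74.

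A smaller share of the peaks on these genes than on other genes lay in the last part of the gene, a difference with no test. Each span was cut into 3 parts of equal length, read along the strand of the peak. The last part held 10 of 32 LNCaP peaks (31.2%, Wilson interval 18.0 to 48.6%) and 2 of 17 PC3 peaks (11.8%, 3.29 to 34.3%). Over other protein-coding genes it held 45.7% and 57.1%. The LNCaP interval includes the 45.7%. Both intervals treat peaks as independent, which peaks of 1 gene are not, so they may be too narrow. In LNCaP, with the peak of smallest p for each gene, 4 of 13 were in the last part (30.8%). The middle part held 40.6% and 58.8% of the peaks on the repair and replication genes, and the first part 28.1% and 29.4%. The 2 PC3 peaks in the last part were on TOP2A and TIMELESS. In PC3 the peaks came from 5 genes, and with the peak of smallest p for each gene 2 of 5 were in the last part (40%), so the low share rests on the several peaks of TOP2A, PARP1 and SMC1A. Of the peaks on chromosomes with annotated starts in the table used, 3 of 24 LNCaP peaks (CLSPN, MDC1 and POLA1) and 1 of 17 PC3 peaks (MDC1) began within 100 bp after a start on their strand, beside 1.93% and 1.60% of all peaks of these lists.

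**Figure D5:**
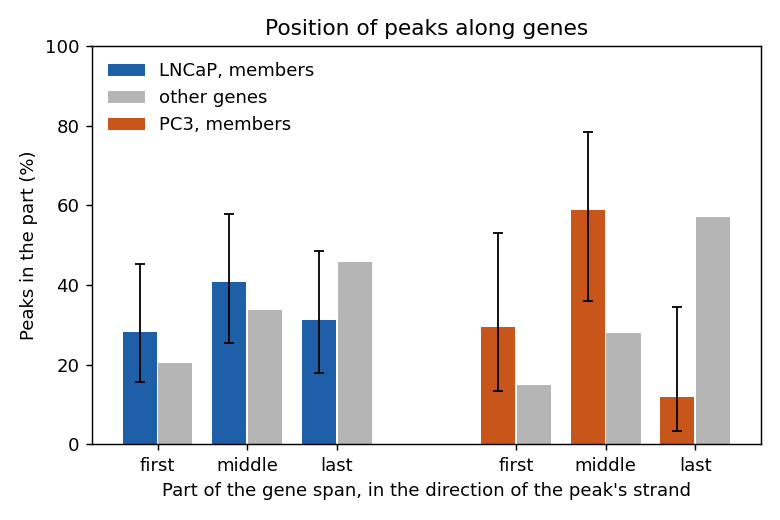
Share of peaks (%) whose midpoint lay in the first, middle or last part of the gene span, read along the strand of the peak, for the repair and replication genes (LNCaP blue, PC3 orange; error bars are 95% Wilson intervals) and for other protein-coding genes (grey). The last part holds 31.2% and 11.8% of the coloured groups, beside 45.7% and 57.1% of the grey ones.

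The strand of 39 of the 44 genes was in the table used, PRKDC not among them. On the others, 21 of 24 LNCaP peaks (87.5%) and 16 of 17 PC3 peaks (94.1%) were on the strand of the gene, beside 96.6% and 96.7% over other protein-coding genes with a known strand. The exceptions were the CLSPN peak and the 2 MDC1 peaks in LNCaP and the MDC1 peak in PC3 described above. The library kit was stranded, per the labels' protocols; the handling of strand by the peak caller is not given in the sources used here.

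Relative to their summed span, the 44 genes held 0.924 peaks per 100 kb in LNCaP and 0.491 in PC3, beside 0.198 and 0.0772 over other protein-coding genes. MDC1, with 34.3 peaks per 100 kb in LNCaP, and TOP2A, with 23.8 in PC3, had the highest densities of the 44. These densities count peaks on both strands and leave close peaks apart. The median peak on these genes spanned 471.5 bp in LNCaP (51 to 11301 bp) and 782 bp in PC3 (51 to 9294 bp), beside 897.5 and 921.5 bp over other protein-coding genes.

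A wider list of 110 other repair and replication genes was read alongside. Of these, 8 held a LNCaP peak (7.27%, beside 6.45% of genes of like length) and 3 a PC3 peak (2.73%, beside 2.18%). Shares near those of genes of like length are no result about that list. The LNCaP genes were ERCC1, MCM2, MCM7, MGMT, RAD51B, STAG1, TOP1 and XPC, and the PC3 genes MCM2, MCM3 and TOP1. MCM2, a subunit of the replicative helicase, held a LNCaP peak with a fold of 6.44 (chromosome 3, 127599361 to 127605058) that met both of its PC3 peaks, with folds of 4.38 and 4.89. TOP1, which relieves supercoils ahead of forks and polymerases, held 3 PC3 peaks with folds from 2.37 to 2.73 and 1 LNCaP peak with a fold of 4.44. The LNCaP peak of TOP1 (51 bp) and 1 of its PC3 peaks (32444 bp) began at the same base (chromosome 20, 41028992).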

How the data were processed

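The authors deposited 1 peak list per cell line, with each peak's position, strand and genomic span in bp. The authors also gave each peak a score, a p-value with its FDR, and a linear fold (ratio) enrichment. Per the submitters' processing notes, fastp, STAR 2.5.3a, bedtools and deepTools were used with the build hg38; the peak caller, its filters and the handling of replicates are not given in the sources used here. The deposited fold has no named denominator, and is taken here as METTL3 IP over input because of the design. The score was not used.

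Peaks were placed in gene spans of RefSeq GRCh38.p14 with Python 3.11.15 and pandas 2.3.3. Gene strand and starts came from a RefSeq table of start windows, which gave a strand for 15811 of 19970 protein-coding genes. Genes of like length were taken in 10 equal classes of span, weighted as the 44 genes fall in them. The assignment was tested on peaks placed at known positions. Intervals on shares are 95% Wilson intervals (scipy 1.17.1). No test between lines was run. Depth is unknown.

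The 44 genes, the wider list and the comparisons were chosen with earlier results of these data known. Genes were named by rule: each member with a peak, with full values for those in both lists and for the 5 with the largest fold in each list. A few other peaks are given in full, and the starts of antisense RNAs were examined after the peaks had been seen. Alternatives were another p, fold, overlap, assignment or strand rule, other length classes, 1 peak per gene and, added after seeing the data, leaving out the gene with the most peaks.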

Additional observations from a re-analysis of the deposited data

How the results depend on the processing

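No paired analysis was possible because each peak list carries 1 value per peak for a whole line; nor could a replicate be left out. Of 77 alternative values, 59 stayed within 1.5 times a count or within the interval of a share or median, and 18 moved. Some of the 59 could not have changed and are no sign of stability. The largest p of PC3 keeps every PC3 peak. No PC3 peak on these genes spans more than the limit of 10000 bp or has an FDR above the limit of 0.01. With LNCaP held to the largest p of PC3, the LNCaP genes with a peak fell from 13 to 4, the peaks from 32 to 5, the genes in both lists from 5 to 2, and the overlapping peaks to 2 in each list; peaks on the gene's strand in LNCaP became 33.3% (1 of 3) and those in the middle part 60% (3 of 5). The share of the 44 genes over that of genes of like length was then 4.57 times in LNCaP. This ratio rests on 4 genes, and CLSPN and MDC1 among them were counted only through peaks on the strand opposite to their own. A p of at most 1e-10 left 0 genes and 0 peaks in LNCaP (genes of like length 0.384%) and 3 genes and 7 peaks in PC3 (1.54%, a ratio of 4.42). A fold of at least 4 left 3 genes and 7 peaks in PC3 (2.30%, a ratio of 2.96). Counting only peaks on a known gene strand left 21 LNCaP peaks, mainly because PRKDC has no strand in the table. An overlap of 50% of both peaks left 3 overlapping peaks in each list. With 1 peak per gene, 40% of PC3 peaks were in the last part. Without TOP2A, 10 PC3 peaks were left. Depth is unknown, so how far it limits these counts was not tested.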

Other observations

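In the wider list, ERCC1 and XPC, both nucleotide excision repair genes, carried LNCaP peaks on both strands and none in PC3. ERCC1 held 4 peaks of 51 bp (chromosome 19). Each plus-strand peak began 2 bp before a minus-strand one and overlapped nearly all of it, so the peaks marked 2 places, each on both strands. The plus-strand peak 45408405 to 45408455 (fold 3.97, p of 0.00777) overlapped the minus-strand peak 45408407 to 45408457 (fold 3.997, p of 0.00157). The plus-strand peak 45408655 to 45408705 (fold 4.35, p of 9.78e-10) overlapped the minus-strand peak 45408657 to 45408707 (fold 3.67, p of 0.0106). XPC held 5 peaks, with folds of 5.85 and 10.3 on the plus strand and from 3.77 to 5.69 on its own minus strand. These genes were singled out after their values were seen, and the source of the opposite-strand reads was not tested. Other genes whose spans hold these peaks are not given here, so the peaks need not belong to ERCC1 or XPC.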
